A study of Mus musculus with 6 samples.

Results

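The genes of the Bcl2 family that decide between survival and death of a cell were followed here in sorted keratocytes of the mouse cornea. The members were the 10 rows of the expression table that carry the symbols Bcl2, Bcl2l1, Bcl2l2, Mcl1, Bax, Bak1, Bcl2l11, Bbc3, Pmaip1 and Bid, out of 17606 genes in the table. All 10 passed the filter on low counts, which left 13888 genes for testing.

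Keratocytes are the mesenchymal cells of the corneal stroma, which lay down and maintain its collagen. They were sorted by flow cytometry from mice aged 10 weeks that had received 3 doses of tamoxifen. The length of treatment is given as 1 month, and the paper places the isolation of keratocytes 1 month after tamoxifen. One group, called Ptch1-ablated here, carried Prrx1-creERT, a Cre recombinase that needs tamoxifen and is driven from the Prrx1 locus, together with floxed Ptch1. Ptch1 is the receptor that keeps the Hedgehog transducer Smo silent, and its removal was used to turn the pathway on. The other group was labelled as control, with no allele given in the labels. Prrx1 is expressed in stromal cells in general, so that cells of the sort other than keratocytes could also have lost Ptch1. Each group had 3 libraries, and the question asked here was how the level of each survival and death gene differed between Ptch1-ablated and control keratocytes.

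The Bcl2 family controls the integrity of the outer mitochondrial membrane. Its anti-apoptotic members Bcl2, Bcl2l1 (Bcl-xL), Bcl2l2 (Bcl-w) and Mcl1 hold the effectors Bax and Bak1 in check, and freed effectors form pores through which cytochrome c escapes and assembles the apoptosome with Apaf1 and Casp9. The BH3-only proteins, among them Bcl2l11 (Bim), Bbc3 (Puma), Pmaip1 (Noxa) and Bid, sense stress and either neutralize the anti-apoptotic members or activate the effectors directly. Much of this control acts on the proteins, which RNA levels do not show.

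Library totals ran from 20258439 to 24788063 counts, so that 3 counts, the limit that a count of 0 allows, stood for 0.121 to 0.148 CPM, counts scaled to a library total of 1000000, for counting error only. Replicates of a group all differed by more than sampling noise, with a chi-square of at least 35.4 per degree of freedom. Ptch1 itself had 172, 104 and 369 counts in controls and 4348, 5194 and 6230 in the libraries labelled Ptch1-ablated, a gene total that does not resolve the deleted exons. The Hedgehog target Gli1 had 1, 20 and 36 against 3022, 3042 and 3098 counts. Keratocyte markers were abundant in both groups, with a summed level of 49947 to 51577 CPM in controls and 27593 to 34163 CPM in ablated libraries, and 5 of the 6 tested were lower. Markers of other cells moved as well, and their part in the results below was not tested. Markers of any list are counted as higher or lower at an adjusted p of at most 0.05 by edgeR. At that threshold 4.68% of all tested genes were higher and 3.8% lower. Of the mural cell markers 3 of 7 were higher, with a summed level of 364 to 374 CPM in controls and 653 to 655 CPM in ablated libraries. Of the vascular endothelium markers 4 of 7 were higher (604 to 807 against 732 to 794 CPM), and of the leukocyte markers 0 of the 10 tested passed by edgeR (966 to 1024 against 825 to 1078 CPM, with 1 at an unadjusted p under 0.05 and 0 by DESeq2). Of the corneal epithelium markers 3 of the 6 tested were lower and 1 was higher, with a summed level of 40.2 to 71.1 against 4.75 to 9.29 CPM. Immediate early and stress genes were higher in 6 of 10 cases (9408 to 10465 against 15504 to 16933 CPM). Of the mitotic genes 1 of the 7 tested was higher (4.68 to 8.35 against 12.96 to 33.0 CPM), as was 1 of 6 corneal endothelium markers (873 to 995 against 670 to 1026 CPM). Of the Schwann cell markers 1 of the 5 tested was higher, and their summed level did not overlap (65.5 to 87.3 against 113 to 122 CPM). Of the 4 melanocyte markers tested 0 passed by edgeR, 0 had an unadjusted p under 0.05 and 0 passed by DESeq2 (18.1 to 23.0 against 14.6 to 19.1 CPM). No gene of these lists was at 0 in all 6 libraries. In RNA from a bulk sample, fewer cells of a type and less RNA per cell cannot be told apart.

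Among the members, Bcl2 and Bcl2l1 passed as higher in Ptch1-ablated keratocytes and none passed as lower. Bid was lower in every ablated library than in any control and fell short of the threshold (adjusted p by edgeR = 0.0664). Fold changes are Ptch1-ablated over control, from edgeR's quasi-likelihood test on the counts, with p-values adjusted by Benjamini-Hochberg over all 13888 genes. At an adjusted p of at most 0.05, 2 of 10 members passed, where 1178 genes or 8.48% of all tested did. With a fold change of at least 2 in addition, 1 of 10 passed (Bcl2), where 763 genes or 5.49% of all did, 3.36% of all being higher and 2.13% lower. In 6 of 10 members the groups did not overlap, against 27.4% of all genes. The median log2 fold change was 0.11 over the members and 0.0046 over all genes. By role, the 4 anti-apoptotic members all had a fitted value above 0, with a median of 0.59, and 2 of them passed, where 650 genes or 4.68% of all were higher. The 2 effectors had a median of -0.12 and the 4 BH3-only members one of -0.46, and 0 of these 6 passed, where 528 genes or 3.8% of all were lower. At an unadjusted p under 0.05 there were 0 effectors and 1 BH3-only member, and DESeq2 gave the same numbers at its adjusted p.

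The levels of different genes were set side by side in TPM, transcript abundance scaled per length and to a sum of 1000000 in each library. In controls, the most abundant members were the effector Bax at 108.6 ± 9.02 TPM and the anti-apoptotic Bcl2l1 at 98.5 ± 10.3 TPM (SD, n = 3 each), whose ranges overlapped. Bid (50.9 ± 7.01 TPM) and Mcl1 (44.6 ± 1.56 TPM) followed and overlapped each other but neither of those above. Bcl2l11, Pmaip1 and Bcl2l2 formed a middle tier at 21.7 ± 8.51, 15.4 ± 1.82 and 13.6 ± 4.34 TPM, in which each overlapped the next. Bcl2, Bbc3 and Bak1 closed the order at 4.77 ± 0.363, 2.84 ± 0.127 and 1.24 ± 0.208 TPM, with no overlap between neighbours. The 2 pore-forming effectors thus lay at the opposite ends of the order.

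In ablated libraries the order opened differently. Bcl2l1 came first at 195.9 ± 49.8 TPM, above Bax at 100.5 ± 9.18 and Mcl1 at 67.6 ± 3.09 TPM (SD, n = 3 each), and no neighbouring ranges among these overlapped. Bid (29.5 ± 10.2 TPM), Bcl2l11 (27.2 ± 2.40), Bcl2l2 (19.4 ± 7.12), Pmaip1 (18.6 ± 3.29) and Bcl2 (17.6 ± 1.21) ran together, each overlapping the next. Bcl2 had thereby moved from below this middle tier into it. Bbc3 and Bak1 remained at the lower end at 1.77 ± 0.225 and 1.54 ± 0.794 TPM and overlapped.

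**Figure D1:**
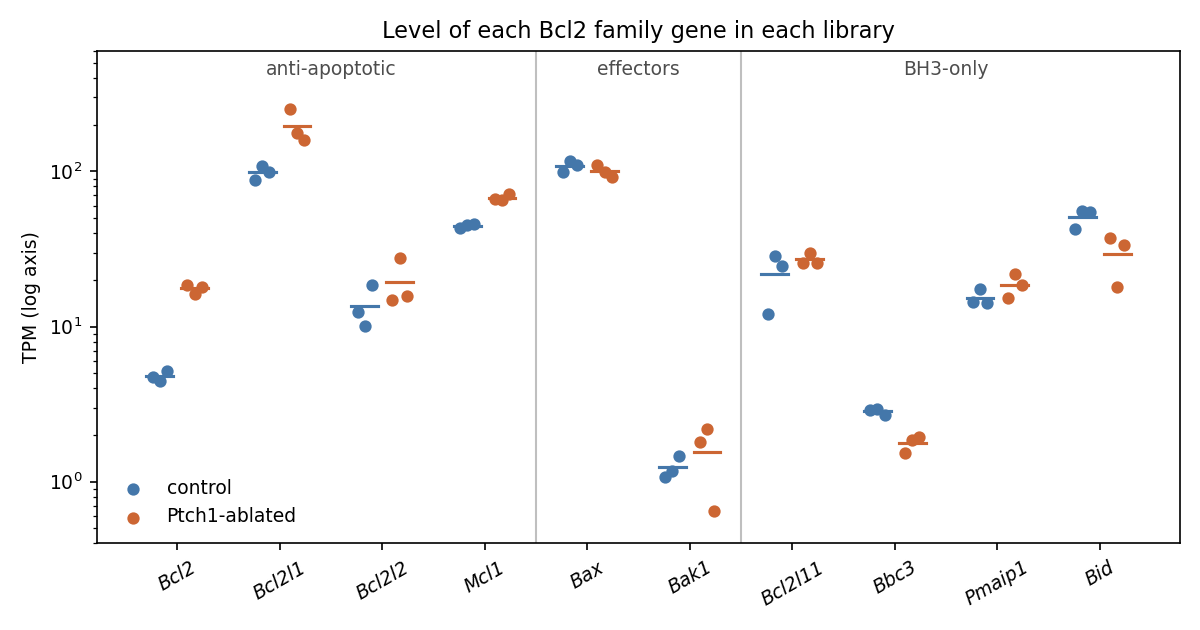
Level of each of the 10 members in each library in TPM, on a log axis, with 3 points for the control and 3 for the Ptch1-ablated group and the mean of each as a bar. The ablated points of Bcl2 (16.3 to 18.6 TPM) lie apart from the controls (4.44 to 5.16 TPM), while Bak1, with its highest library at 2.17 TPM, has the lowest mean in both groups.

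Bcl2 (Entrez 12043), the founding anti-apoptotic member, showed the largest fold of the 10. It had 311, 246 and 299 counts in the control libraries, against 926, 934 and 986 after ablation. The 3 ablated libraries lay close together and far above all controls. In CPM of the scaled library totals the level rose from 13.4 ± 0.729 to 39.6 ± 0.123 (SD, n = 3 each), a 2.95-fold change (log2 fold change 1.56 with an SE of 0.22, adjusted p by edgeR = 0.000783, 95% interval 1.07 to 2.05). It passed in all 15 alternative analyses, with log2 fold changes of 1.51 to 1.86.

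Bcl2l1 (Entrez 12048), whose long product Bcl-xL guards the mitochondria of many resting cells, had 2195, 2355 and 2515 counts in controls and 5892, 3847 and 4019 in ablated libraries. All ablated libraries lay above all controls, and ablated replicate 1 lay far above the other two. In CPM the level rose from 111.6 ± 11.6 to 192 ± 51.1 (SD, n = 3 each), a 1.72-fold change (log2 fold change 0.78 with an SE of 0.19, adjusted p by edgeR = 0.0242, lower 95% limit 0.37). The call held without ablated replicate 2 or 3, with a log2 fold change of 0.89 each time (edgeR adjusted p = 0.0295 and 0.0346), and was lost in the other fits that left out a library. Leaving out ablated replicate 1 gave a log2 fold change of 0.55 (edgeR adjusted p = 0.104), and leaving out control replicate 1, 2 or 3 gave 0.71, 0.87 and 0.78 (edgeR adjusted p = 0.0785, 0.0561 and 0.0699). The gene total does not separate the long form from the pro-apoptotic short form Bcl-xS.

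Mcl1 (Entrez 17210), an anti-apoptotic member with a short-lived protein, had 1573, 1477 and 1708 counts in controls and 2273, 2110 and 2664 in ablated libraries. The groups did not overlap, at 72.2 to 77.7 against 89.6 to 107.2 CPM, but the difference did not pass (log2 fold change 0.39 with an SE of 0.16, adjusted p by edgeR = 0.181, 95% interval 0.043 to 0.73). Scaling by library totals alone and limma on log2(TPM + 1) or log2(TPM + 0.1) gave larger values of 0.55, 0.59 and 0.60 and an adjusted p of 0.0426, 0.0375 and 0.0384. On these 3 scales the median of all genes also lay higher, at 0.17, 0.19 and 0.22, and Mcl1 stood 0.38, 0.40 and 0.38 above it.

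Bcl2l2 (Entrez 12050), which encodes Bcl-w, had 366, 254 and 553 counts in controls and 376, 696 and 480 in ablated libraries. The groups overlapped, with control replicate 3 above 2 of the ablated libraries. Its log2 fold change was 0.26, with an SE of 0.32 (adjusted p by edgeR = 0.734), and the 95% interval of -0.45 to 0.96 left room for a change in either direction. Its expected counts were not whole numbers in any of the 6 libraries. Those of Bcl2l11 were not whole in 5 libraries and those of Mcl1 in 2. RSEM splits reads that match several places.

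The start regions of both genes that rose and of Mcl1 are set side by side, since they differ in base composition and GC boxes. Shown are the 250 bases before the start listed by RefSeq on GRCm38.p6, written 5′ to 3′ on the strand of the gene, with the GC box GGGCGG or its reverse complement CCGCCC in capitals. The window of Bcl2 is chr1:106714291-106714540 on the minus strand, that of Bcl2l1 is chr2:152831729-152831978 on the minus strand, and that of Mcl1 is chr3:95658471-95658720 on the plus strand.
Bcl2: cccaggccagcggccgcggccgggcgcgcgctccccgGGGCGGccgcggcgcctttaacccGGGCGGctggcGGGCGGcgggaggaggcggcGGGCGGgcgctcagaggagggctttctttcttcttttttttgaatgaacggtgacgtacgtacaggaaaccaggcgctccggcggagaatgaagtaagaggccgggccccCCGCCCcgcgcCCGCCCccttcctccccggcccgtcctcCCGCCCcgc
Bcl2l1: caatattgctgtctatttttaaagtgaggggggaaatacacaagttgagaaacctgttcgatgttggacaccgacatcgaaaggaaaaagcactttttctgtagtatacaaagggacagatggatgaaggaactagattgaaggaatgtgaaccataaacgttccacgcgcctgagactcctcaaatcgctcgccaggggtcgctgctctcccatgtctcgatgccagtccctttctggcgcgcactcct
Mcl1: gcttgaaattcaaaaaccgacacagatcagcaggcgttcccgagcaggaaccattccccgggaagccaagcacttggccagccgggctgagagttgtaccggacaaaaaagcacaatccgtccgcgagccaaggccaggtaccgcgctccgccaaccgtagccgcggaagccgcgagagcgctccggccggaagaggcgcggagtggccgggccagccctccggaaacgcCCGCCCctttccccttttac

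The Bcl2 window held 7 GC boxes and 74.8% G and C, whereas the window of Bcl2l1 held 0 and 47.6%, and that of Mcl1 held 1 and 64.4%. The median over all 32851 windows of this length was 52.4%. RefSeq lists 3 starts for Bcl2l1, of which the most upstream is shown. Windows were read for 9 of the members, 14 in all since some have several starts. Pmaip1, on chromosome 18, was left out of the scan. A GC box was present in 10 of these 14 windows, from 7 members, and in 32.7% of all windows. The Gli recognition letters GACCACCCA, or TGGGTGGTC on the other strand, were found in 0 of the 14 windows and in 0.225% of all, and this covers only these letters in these 250 bases. The cyclic AMP element TGACGTCA (1.55% of all windows) and the AP-1 letters TGACTCA (4.46%) were found in 0 member windows on either strand. The forkhead letters GTAAACA, on either strand, were present in 1 window each of Bcl2l11 and Bbc3, and in 3.17% of all windows. No motif searched contains another, and a match is a description of the sequence only.

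Bax (Entrez 12028), the effector that moves from the cytosol to the mitochondria, had 697, 721 and 778 counts in controls and 727, 605 and 658 in ablated libraries. In CPM the groups did not overlap, at 32.0 to 37.9 against 25.7 to 31.0, but in TPM they did, at 99.2 to 117 against 92.1 to 110. The difference did not pass (log2 fold change -0.32 with an SE of 0.21, adjusted p by edgeR = 0.454, 95% interval -0.79 to 0.15). Bak1 (Entrez 12018), the effector resident in the mitochondrial membrane, was scarce, with 21, 20 and 29 counts in controls and 33, 37 and 13 in ablated libraries. The groups overlapped, with ablated replicate 3 the lowest of all. At this depth the 95% interval of its log2 fold change, -2.07 to 2.25, did not bound a change of 4-fold in either direction. Bak1 overlaps Ggnbp1 on the opposite strand, and reads there cannot be told apart since the strand setting of the counting is not given.

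Bid (Entrez 12122) links the death receptors to the mitochondria once caspase-8 has cut it. It had 790, 886 and 1017 counts in controls and 637, 288 and 627 in ablated libraries. All ablated libraries lay below all controls, and ablated replicate 2 was the lowest. Its level was 42.5 ± 5.48 CPM in controls and 21.5 ± 8.12 CPM after ablation (SD over 3 libraries), 1.97-fold higher in controls, with a log2 fold change of -0.98 (SE 0.30) that did not pass (adjusted p by edgeR = 0.0664, 95% interval -1.63 to -0.33). It passed with DESeq2 (-0.97, adjusted p = 0.0184) and in edgeR without a filter on low counts (-0.98, adjusted p = 0.0464). Leaving out ablated replicate 2 gave -0.69 (edgeR adjusted p = 0.136). Bid meets Bcl2l13 tail to tail on the opposite strand, and the reads of the overlap cannot be told apart.

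The other BH3-only genes did not pass. Bcl2l11 (Entrez 12125), which encodes Bim, had 651, 1321 and 1327 counts in controls and 1293, 1413 and 1402 in ablated libraries. Control replicate 1 stood apart below the remaining 5 libraries. This library also had the fewest detected genes, 14331 against 15029 to 15645 in the others. The part of that in the value of Bcl2l11 was not tested. The log2 fold change of Bcl2l11 was 0.12, with an SE of 0.27 (adjusted p by edgeR = 0.864, 95% interval -0.46 to 0.71), and without control replicate 1 it was -0.16 (edgeR adjusted p = 0.757). Pmaip1 (Entrez 58801), which encodes Noxa, the partner that targets Mcl1, had 386, 408 and 386 against 383, 512 and 506 counts. Its ranges overlapped, at a log2 fold change of 0.060, with an SE of 0.26 (adjusted p by edgeR = 0.941, 95% interval -0.51 to 0.63). Bbc3 (Entrez 170770), the p53 target that encodes Puma, was scarce, with 45, 54 and 44 counts in controls and 25, 25 and 33 in ablated libraries. The groups did not overlap, with all ablated libraries lower, but the log2 fold change of -0.98, with an SE of 0.86 (adjusted p by edgeR = 0.596) had a 95% interval of -2.86 to 0.90.

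**Figure D2:**
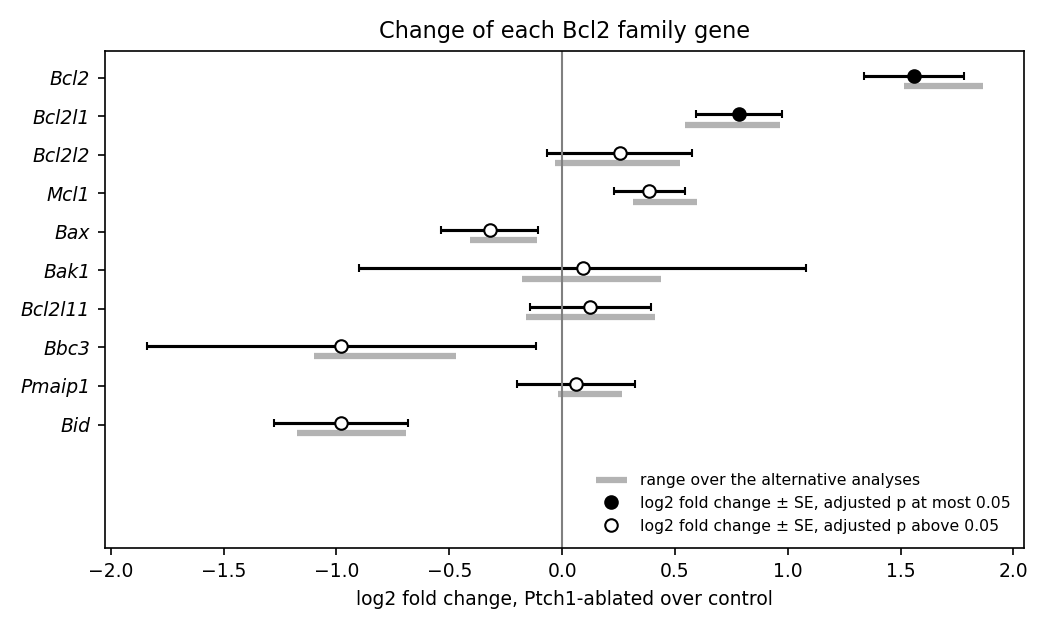
Log2 fold change of each member, Ptch1-ablated over control, with its SE, above a grey bar for the range over the alternative analyses. Filled points mark an adjusted p of at most 0.05 (Bcl2 at 1.56 and Bcl2l1 at 0.78) and open points the other 8 members. The grey bars of Bcl2l2, Bak1, Bcl2l11 and Pmaip1 cross 0.

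The members were then added within each library in TPM, a scale on which the median log2 fold change of all genes was 0.19 with a pseudocount of 1. The 4 anti-apoptotic members summed to 148.2, 168.4 and 168.0 TPM in controls and to 352.4, 285.3 and 264.1 TPM in ablated libraries. The groups did not overlap, with means of 161.5 ± 11.5 and 300.6 ± 46.1 TPM (SD, n = 3 each). The 6 pro-apoptotic members summed to 172.5, 222.4 and 207.0 TPM in controls and to 191.8, 172.8 and 172.8 TPM in ablated libraries, and here the groups overlapped. Both sums cover the members only and leave out other family genes on each side. Among those, pro-apoptotic Bad had a mean of 58.5 TPM in controls and 53.3 TPM after ablation, and Bok 8.96 and 37.3 TPM. Anti-apoptotic Bcl2a1b had 9.24 and 17.7 TPM.

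The ratio of the anti-apoptotic to the pro-apoptotic sum of the members does not depend on scaling between libraries. It was 0.859, 0.757 and 0.811 in controls and 1.84, 1.65 and 1.53 in ablated libraries. For these 10 genes in TPM, controls were thus all below 1 and ablated libraries all above it. The means were 0.809 ± 0.0512 and 1.67 ± 0.155 (SD, n = 3 each), a difference of 0.863 and a 2.07-fold higher ratio in the ablated group. It is given as a description with no test, since the 10 genes were chosen with results known. Without Bcl2l1, the most abundant anti-apoptotic member, the ratio was 0.317 ± 0.0429 in controls and 0.587 ± 0.0586 after ablation (SD over 3 libraries), a difference of 0.270 and a 1.85-fold higher ratio, in an alternative chosen after seeing the data. Without Bid, also chosen after seeing the data, the difference was 0.921 and the ratio was again 1.85-fold higher. The side of 1 changed with the genes and unit. Controls were at 1.14, 1.01 and 1.10 without Bid, and at 1.72, 1.27 and 1.42 with all members in CPM. Ablated libraries were at 0.521, 0.632 and 0.608 without Bcl2l1. RNA sums weigh each transcript alike, and the proteins they encode differ in stability and potency.

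**Figure D3:**
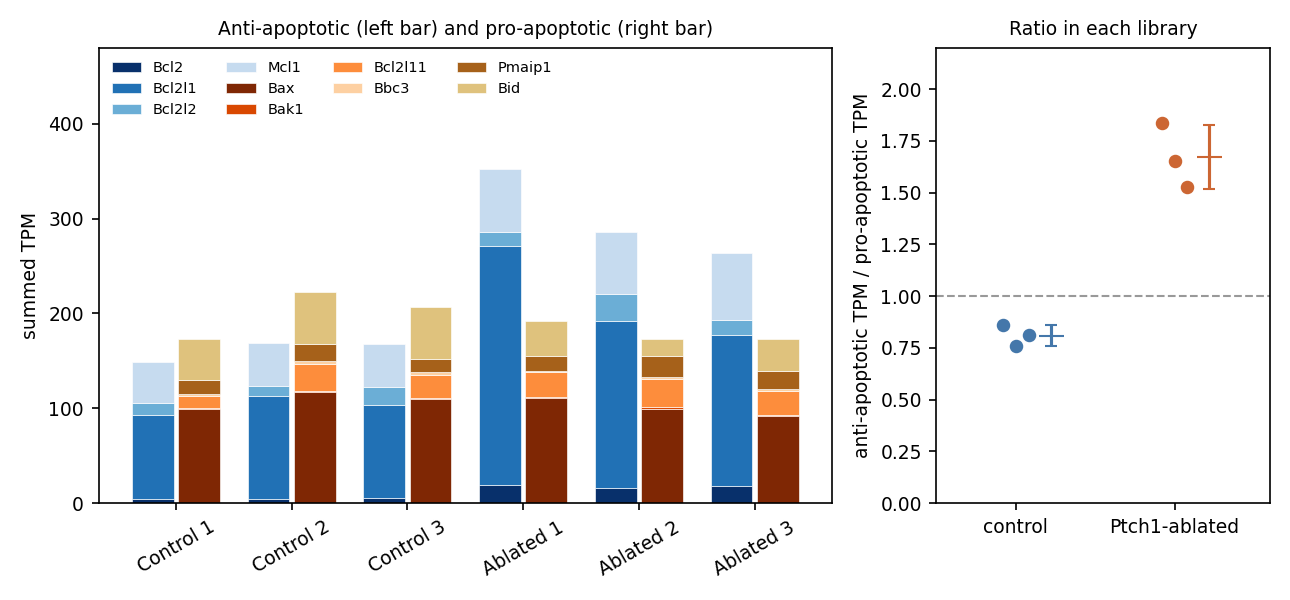
Left, summed TPM of the 4 anti-apoptotic (left bar) and 6 pro-apoptotic members (right bar) in each library, stacked by gene. Right, the ratio of the sums in each library with mean ± SD per group and a dashed line at 1. Control ratios run from 0.757 to 0.859 and ablated ratios from 1.53 to 1.84.

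Within the sums, Bcl2l1 supplied 60.9 ± 3.20% of the anti-apoptotic TPM in controls and 64.5 ± 6.21% after ablation (SD over 3 libraries), with overlap. Bcl2 supplied 2.96 ± 0.289% and 5.93 ± 0.800%, without overlap, so that the strongest riser by fold remained a small part of the sum. Mcl1 supplied 27.7 ± 1.09% and 22.9 ± 4.05%, with overlap. On the pro-apoptotic side Bax supplied 54.4 ± 2.74% and 56.0 ± 2.35%, with overlap, and Bid 25.4 ± 0.906% and 16.4 ± 5.20%, without overlap (SD, n = 3 each).

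Pairs that bind each other as proteins were set against each other in the same way. The ratio of Bcl2 to Bax in TPM was 0.0476, 0.0379 and 0.0471 in controls and 0.169, 0.164 and 0.196 in ablated libraries, 3.99-fold higher in the mean. In TPM, Bcl2 thus stayed below Bax in every library of both groups. In CPM, which is not scaled per length, it stood above Bax in each ablated library (39.5, 39.7 and 39.7 against 31.0, 25.7 and 26.5). The ratio of Bcl2l1 to Bax was 0.889, 0.928 and 0.900 in controls and 2.29, 1.78 and 1.73 in ablated libraries. In TPM, Bcl2l1 was therefore the scarcer transcript of this pair in each control and the more abundant in each ablated library. In CPM it stood above Bax in each control too (100.7, 123.9 and 110.1 against 32.0, 37.9 and 34.1). The ratio of Mcl1 to Bax ran from 0.386 to 0.432 in controls and from 0.602 to 0.772 in ablated libraries, and that of Bcl2 to Bcl2l11 from 0.156 to 0.390 and from 0.543 to 0.722, again without overlap.

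The rest of the pathway was taken from 5 lists with 104 genes, of which 103 were in the table and 97 were tested. At an adjusted p of at most 0.05 by edgeR, 3 were higher and 3 lower, and 91 did not pass, where 8.48% of all genes passed. The groups did not overlap for 35 of the 97, against 27.4% of all genes. The median log2 fold change was 0.14, against 0.0046 over all genes. At an unadjusted p under 0.05 there were 24 of the 97, against 2854 of all 13888 genes. DESeq2 gave 9 at an adjusted p of at most 0.05, against 1736 of all genes.

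Among the other Bcl2 family genes, 1 of 14 tested was lower and 0 were higher by edgeR, with 3 at an unadjusted p under 0.05 and 2 by DESeq2. Bcl2l13, a mitochondrial membrane protein with a part in mitophagy, had 9695, 9246 and 12589 counts in controls and 5104, 6080 and 5792 in ablated libraries. Every ablated library lay below every control. It fell from 494 ± 53.6 to 236 ± 20.5 CPM (mean ± SD over 3 libraries a group, log2 fold change -1.06 with an SE of 0.14, adjusted p by edgeR = 0.000323) and passed in all 15 alternative analyses. Bcl2l13 is the gene that meets Bid tail to tail, and reads of the overlap cannot be told apart. Bok, an effector-like member chosen here after its values were seen, had 229, 107 and 43 counts in controls and 619, 306 and 634 in ablated libraries, without overlap (log2 fold change 1.85 with an SE of 0.53, adjusted p by edgeR = 0.0532). It was the member of this list closest in kind to Bax and Bak1. Its level was 3.60-fold higher after ablation by the fit, just short of the threshold. Its calls under the alternatives were not read.

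The apoptosome, caspase and inhibitor list held 22 tested genes with a median log2 fold change of -0.016, of which 1 was higher and 1 lower. Casp9, the initiator caspase of the mitochondrial route, had 820, 732 and 935 counts in controls and 647, 392 and 484 in ablated libraries. All ablated libraries lay below all controls. It fell from 39.0 ± 1.71 to 21.2 ± 5.67 CPM (mean ± SD over 3 libraries a group, log2 fold change -0.88 with an SE of 0.24, adjusted p by edgeR = 0.0466), a call that held in 6 of 15 alternatives and, of the 6 that left out a library, in the one without ablated replicate 1. In those 6 the log2 fold change ran from -1.11 to -0.73 and the edgeR adjusted p from 0.0332 to 0.158. Birc3, an inhibitor of apoptosis that ubiquitinates Ripk1, had 435, 486 and 491 counts in controls and 928, 968 and 1247 in ablated libraries. Here the ablated libraries were all higher, and the gene rose by a log2 fold change of 0.97, with an SE of 0.22 (adjusted p by edgeR = 0.0170), a call that held in 13 of 15 alternatives. It was lost without control replicate 3 and without ablated replicate 3, the highest adjusted p being 0.0939 by edgeR.

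The remaining parts of the apoptosome did not pass. Apaf1, its scaffold, had 392, 220 and 509 against 652, 795 and 598 counts, without overlap (log2 fold change 0.72 with an SE of 0.29, adjusted p by edgeR = 0.175). The scaffold thus stood higher and the initiator lower in the ablated libraries, with a call for the initiator alone. Cytochrome c, encoded by Cycs (-0.16 with an SE of 0.22, adjusted p by edgeR = 0.754), and the caspase inhibitor Xiap (0.12 with an SE of 0.22, adjusted p by edgeR = 0.830) overlapped between groups. These values are on the log2 scale. Of the 14 tested genes of the death receptor pathway, which feeds into Bid, 0 passed by edgeR, 3 had an unadjusted p under 0.05 and 0 passed by DESeq2, with a median log2 fold change of 0.091.

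The p53 axis controls Bax, Bbc3 and Pmaip1 among many genes. Of its 16 tested genes 1 was higher, with 4 at an unadjusted p under 0.05 and 2 by DESeq2, and a median log2 fold change of 0.42. Cdkn1a, the p53 target that encodes the cell cycle inhibitor p21, had 3368, 2951 and 2826 counts in controls and 9552, 8431 and 8605 in ablated libraries. The groups lay far apart, and it rose from 144.5 ± 18.0 to 371 ± 32.2 CPM (mean ± SD over 3 libraries a group, log2 fold change 1.36 with an SE of 0.15, adjusted p by edgeR = 8.11e-05), in all 15 alternatives too. Trp53 itself had 2139, 1994 and 2232 against 3753, 3071 and 3505 counts, without overlap, and did not pass (log2 fold change 0.52 with an SE of 0.15, adjusted p by edgeR = 0.0529). It passed in 6 of 15 alternatives, among them DESeq2 (0.53, adjusted p = 0.00690) and limma on log2(TPM + 1) (0.72, adjusted p = 0.00383), and in 0 of the 6 that left out a library. Mdm2, which encodes the ligase for p53, ranged widely in controls, with 716, 1394 and 1970 against 1495, 1795 and 2315 counts (0.28 with an SE of 0.30, adjusted p by edgeR = 0.680). The death genes of this axis among the members (Bax, Bbc3 and Pmaip1) did not pass. For the scarce Bbc3 the 95% interval of -2.86 to 0.90 spanned 0, with more room for a fall than for a rise.

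Of 31 regulators of the family 1 was higher and 1 lower, at a median log2 fold change of 0.087. At an unadjusted p under 0.05 there were 10 of the 31, against 2854 of all 13888 genes. Stat3, a transcription factor known to act on Bcl2l1 and Mcl1, rose from 207, 306 and 299 CPM in controls to 427, 389 and 397 CPM in ablated libraries (log2 fold change 0.58 with an SE of 0.16, adjusted p by edgeR = 0.0442). Tmbim1, of the family of Bax inhibitor 1, fell from 424 ± 39.4 to 291.5 ± 31.2 CPM (mean ± SD over 3 libraries a group, log2 fold change -0.54 with an SE of 0.14, adjusted p by edgeR = 0.0273). Each of these calls held in 7 of 15 alternatives. Of the 6 fits that left out a library, Stat3 passed in 0, at an edgeR adjusted p of 0.0565 to 0.136, and Tmbim1 in 1, that without ablated replicate 1, at 0.0319 to 0.106.

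**Figure D4:**
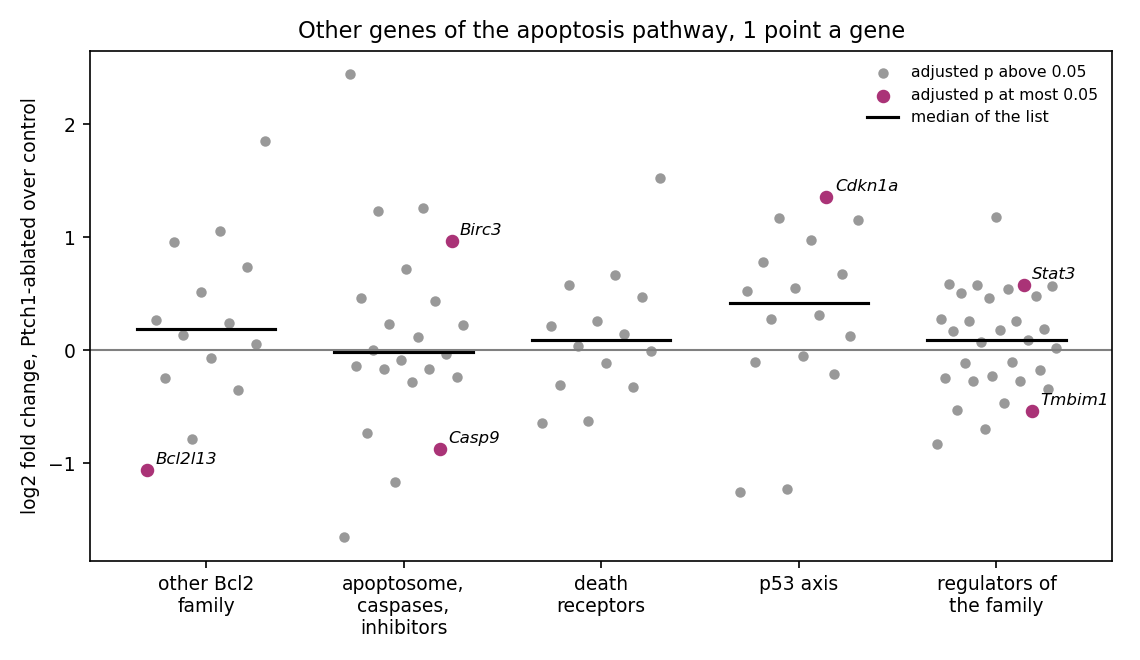
Log2 fold change, Ptch1-ablated over control, of the 97 tested pathway genes outside the 10 members, 1 point a gene, by list, with the median of each list as a black line. The 6 coloured points pass an adjusted p of 0.05, namely Bcl2l13, Casp9, Birc3, Cdkn1a, Stat3 and Tmbim1, and the list medians lie between -0.016 and 0.42.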

How the data were processed

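RNA from FACS-sorted corneal keratocytes was sequenced in 6 libraries, 3 control and 3 Ptch1-ablated, grouped by their titles. The labels name a TruSeq kit, whereas the study's methods describe ribosomal RNA depletion and a BGISEQ platform, and the values do not settle this. The submitters' processing notes name Bowtie2 2.2.5, RSEM 1.2.12 and the build mm9. Annotation and strand setting are not given in the sources used here. The deposited expected counts are RSEM estimates per gene with no normalization, of which 18.6% are not whole (tolerance 0.001). The authors also deposited TPM, scaled per length and to 1000000 per library, and FPKM, scaled per length and library, used in one alternative. The authors' group averages were not used.

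Expected counts were rounded. Genes were kept by filterByExpr (13888 of 17606), scaled by TMM and compared by edgeR's two-sided quasi-likelihood test without covariates, adjusted after Benjamini and Hochberg across the whole tested table. A gene passed when its adjusted p did not exceed 0.05, and counts are given with and without the study's fold minimum of 2. SEs were derived from F and the fold. The labels do not say that replicates are separate animals or pools, so p-values measure the spread between these libraries. The alternatives were RLE, upper quartile and no scaling, DESeq2, every gene with any count, a mean count of at least 50, limma on log2(TPM + 1) and log2(TPM + 0.1), the replicate number as a block, leaving out each library, and no fold minimum. The fits were tested on simulated data.

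Named were all 10 members, every pathway gene that passed, and Apaf1, Cycs, Casp9, Xiap, Trp53, Mdm2 and Cdkn1a whatever their values. One further gene of this rule is not reported here. Others were chosen after their values were seen. The members and lists were chosen with earlier results of these data known. Promoter windows came from RefSeq (GRCm38.p6), a build other than that of the counts, and overlaps between genes from a GRCm38 annotation. Fits were run with edgeR 4.0.16, DESeq2 1.42.0 and limma 3.58.1 in R 4.3.3, and descriptions in Python 3.11.15.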

Additional observations from a re-analysis of the deposited data

How the results depend on the processing

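With no fold minimum the calls were 1178 over all genes in place of 763, 2 among the members in place of 1, and 6 among the pathway genes in place of 2. The last count was also 5 and 4 with limma on log2(TPM + 1) and log2(TPM + 0.1). With 1 library left out, calls ran from 611 to 756 over all genes and from 1 (without control replicate 3) to 4 (without ablated replicate 1) among pathway genes, and stayed at 1 among the members. The difference in the ratio of anti-apoptotic to pro-apoptotic TPM (0.863) became 1.27 in CPM, which is not scaled per length, and 0.270 without Bcl2l1, and ran from 0.781 to 0.935 with 1 library left out. As a fold the ratio was 2.07 times higher in TPM, 1.86 in CPM and 1.85 without Bcl2l1. Where no construction shows it, the cause was not tested.

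Of 148 values of the members under the alternatives, 141 kept the direction of the main value, and 6 of 10 members kept it in all. Calls of members at an adjusted p of 0.05 were lost or gained in 10 cases, for Bcl2l1, Mcl1 and Bid. Bak1 and Bbc3 had too few counts for the fit with a mean count of at least 50.

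With the replicate number as a block, 663 genes, 1 member and 3 pathway genes were called with a fold change of at least 2, and Bcl2l1 had a log2 fold change of 0.76 (edgeR adjusted p = 0.0577). No pairing by number was visible. Deviations from the group means correlated at -0.022, -0.063 and 0.039 between libraries of the same number, and 2 of 6 libraries correlated best with their own number. With 3 libraries a group, these values cannot show whether libraries of the same number were handled together. Depth limits Bak1 and Bbc3 most, at 13 to 54 counts a library, and their 95% intervals of the log2 fold change (-2.07 to 2.25 and -2.86 to 0.90) were the widest of the members.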

Other observations

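Some family genes outside the members were carried by single libraries, and all were chosen after their values were seen. Bcl2l10, an anti-apoptotic member best known from oocytes, had 0, 0 and 2 counts in controls and 0, 279 and 3 in ablated libraries, too few libraries for a test. Ablated replicate 2 alone held it. The same library was high for genes of dividing cells: the survivin gene Birc5 had 4, 9 and 25 counts in controls and 11, 198 and 19 in ablated libraries, and the cyclin gene Ccnb1 had 0, 2 and 2 against 21, 217 and 21. It also held the lowest count of Bid (288), and the part of this library's other features in that value was not tested.

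The A1 genes, near-identical anti-apoptotic copies known from leukocytes, were uneven between libraries. Bcl2a1b had 0, 59 and 96 counts in controls and 66, 112 and 114 in ablated libraries, and Bcl2a1d had 0, 51 and 70 against 58, 135 and 93. Control replicate 1 was at 0 for both, and Bcl2a1a was at 0 in ablated replicate 2 (31, 22 and 39 against 28, 0 and 32). Reads of such copies can be split or lost by the counting, so the values of single copies are uncertain.

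The BH3-only gene Bmf had 0, 41 and 39 counts in controls and 39, 91 and 49 in ablated libraries, with control replicate 1 at 0 as for Bcl2a1b and Bcl2a1d. Hrk, a BH3-only gene of neurons, had 12 counts in ablated replicate 1 and 0 in the other libraries. Bnip3, a hypoxia-responsive relative that serves mitophagy, had 1246, 1610 and 1796 counts in controls and 2183, 2503 and 2869 in ablated libraries, without overlap, at a log2 fold change of 0.51 that did not pass (adjusted p by edgeR = 0.131).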
